A study of Schizosaccharomyces pombe with 6 samples.

Results

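The genes described here make pyrimidine nucleotides in the fission yeast Schizosaccharomyces pombe or carry uracil into the cell. They are the 5 genes ura1 (SPAC22G7.06c), ura2 (SPAC16.03c), ura3 (SPAC57A10.12c), ura4 (SPCC330.05c) and ura5 (SPBC725.15) and the uracil transporter gene fur4 (SPAC1399.03), taken by name as 6 of the 7016 features of the deposited table. RNA came from asynchronous, exponentially growing cultures in YES, a rich yeast extract medium that commonly contains added uracil, at 30 ˚C. The 3 estradiol libraries came from cultures given 1 µM beta-estradiol in ethanol for 3 h, and the 3 control libraries from cultures given the vehicle. The series design calls the libraries biological triplicates, and the labels give neither the strain nor its alleles. Values are FPKM, by definition fragment counts divided by gene length and library total, and any further scaling across libraries is not stated. Libraries are named by the number 0 to 2 in their column names.

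In the new synthesis of pyrimidines, Ura1 joins an amide nitrogen of glutamine to bicarbonate as carbamoyl phosphate and then couples it to aspartate. Ura2 closes the ring, Ura3 oxidises dihydroorotate to orotate in the mitochondrion, Ura5 attaches ribose phosphate, and Ura4 removes a carboxyl group to give UMP, the parent of UTP and CTP. Cells that cannot complete this route live on uracil taken up through Fur4 and converted to UMP by a uracil phosphoribosyltransferase, the salvage route. The numbering differs from that of budding yeast, in which URA3 encodes the enzyme that fission yeast calls Ura4.

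The absolute depth is unknown because the table holds no counts. With control library 0 set to 1, the spacing of the low values gave relative depths of 0.688 (estradiol 0) to 1.3 (control 1). Any scaling applied across libraries would be included in these depths. The number of features at 0 ran from 462 to 599 over the libraries. The entry named GFP, green fluorescent protein, differed between the groups, with 131, 148 and 161 FPKM in the controls and 814, 775 and 553 FPKM with estradiol. Of 6166 features with a mean of at least 1 FPKM, limma called 251 higher (4.07%) and 241 lower (3.91%) with estradiol at an adjusted p under 0.05, 7.98% in either direction. Log2 changes below are estradiol minus control on the log2(FPKM + 1) scale.

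ura1, whose enzyme carries out the opening reactions of the pathway, was called lower with estradiol. Quantile normalization and correction for level ended this call (limma adjusted p = 0.0519 and 0.0566). ura4, the gene of the step that makes UMP in new synthesis, was listed at 0 in every library. Of the 6 members, 5 passed the filter on low values and 1 of these 5, ura1, was called lower, beside 3.91% of all features tested, and 0 were called higher. ura2, ura3, ura5 and fur4 were not called, and ura4 did not pass the filter.

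ura1, on chromosome I at 739167 to 746114 on the reverse strand of the ASM294v3 reference, encodes the enzyme that commits glutamine and aspartate to pyrimidines. It stood at 684, 787 and 749.5 FPKM in control libraries 0, 1 and 2. In the estradiol libraries it stood at 502, 504 and 510.1 FPKM. All 3 estradiol values lay below the lowest control value, and they were closer together than the control values. The means were 740.4 ± 52.1 and 505 ± 4.08 FPKM (SD, n = 3 per group), a log2 change of -0.55 with an SE of 0.07 (limma adjusted p = 0.00914, and 0.1 by the exact permutation test, the smallest p that 3 against 3 libraries allow). In these bulk cultures, fewer cells with the message and less of it per cell cannot be told apart. Leaving out single libraries kept the call (limma adjusted p of 0.0244 to 0.0495). The level of ura1 was at percentile 96.1 of the features tested. After correction for a trend of change with level the log2 change was -0.34 (limma adjusted p = 0.0566), and under quantile normalization it was -0.34 (limma adjusted p = 0.0519), so both ended the call.

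The middle steps were not called. ura2, which encodes dihydroorotase (chromosome I, 4427303 to 4428826), had 55.4, 54.6 and 55.4 FPKM in the controls and 50.1, 57.3 and 52.98 FPKM with estradiol, and the groups overlapped. Its log2 change was -0.046, with a 95% interval of -0.20 to 0.11 (limma adjusted p = 0.717). A change of the size of that in ura1 lies outside this interval.

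ura3 encodes the dihydroorotate dehydrogenase (chromosome I, 1385357 to 1387145). Its controls stood at 372, 443 and 428 FPKM and its estradiol libraries at 329.7, 395 and 394 FPKM. Library 0 was the lowest of its group on both sides, and the groups overlapped. The log2 change was -0.15, with a 95% interval of -0.39 to 0.09 (limma adjusted p = 0.397), and it was slightly above 0 with the level correction (0.017) and with quantile normalization (0.029).

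ura5, the orotate phosphoribosyltransferase gene (chromosome II, 1231043 to 1232358), had 201, 204 and 200.4 FPKM in the controls and 184, 179 and 195 FPKM with estradiol. The estradiol values lay just below the controls without overlap, as was the case for ura1, ura5 and fur4 among the 5 members tested and for 14.0% of all features. No member had all estradiol values above the controls, as 17.1% of all features did. The log2 change of -0.12 was not called, with a 95% interval of -0.25 to 0.01 (limma adjusted p = 0.236).

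**Figure D1:**
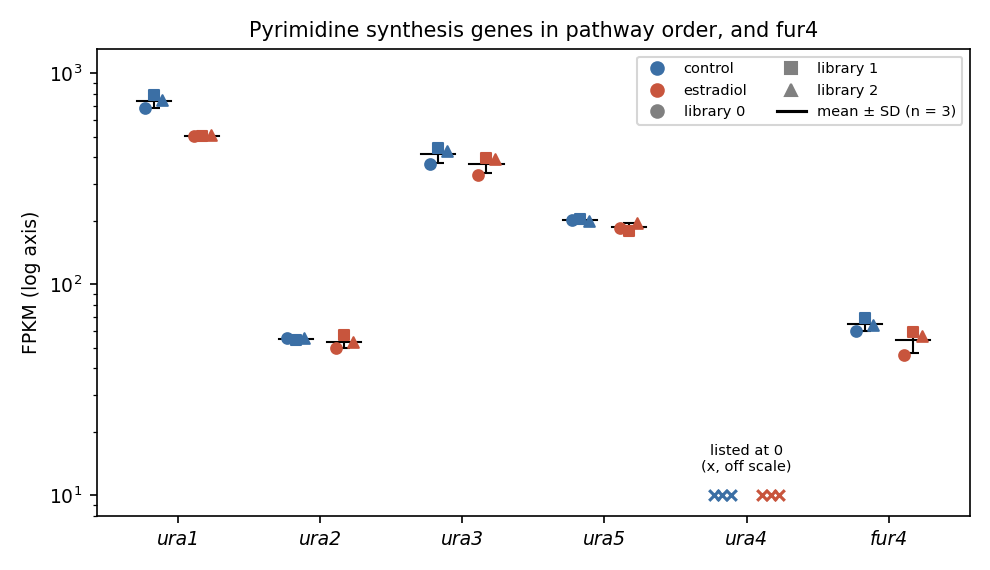
FPKM of the 6 genes in each library on a log axis, in pathway order with fur4 last; blue is control, red is estradiol, symbols give the library number, and black bars give the mean ± SD of 3 libraries. The estradiol values of ura1 sit at 502 to 510.1 FPKM, below the lowest control at 684, while crosses mark ura4, listed at 0 in all 6 libraries and drawn off scale.

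The level of ura1 was next taken relative to the other members. All of these ratios have ura1 as numerator, so they restate its lower level and are not separate results. Since FPKM is per length, levels can be set against each other within a library. The ratio of ura1 to ura2 was 12.3, 14.4 and 13.5 in the controls and 10.04, 8.8 and 9.63 with estradiol. The ratio to ura3 went from 1.79 ± 0.05 to 1.36 ± 0.14, that to ura5 from 3.67 ± 0.24 to 2.72 ± 0.10 and that to fur4 from 11.5 ± 0.18 to 9.43 ± 1.28 (mean ± SD, n = 3 per group). In each of these 4 ratios every estradiol library lay below every control library, and no groups overlapped. Each had an exact permutation p of 0.1, two-sided, and 0.1 after adjustment over the 4, the smallest that this design allows.

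The order of the levels was the same at the top in all 6 libraries, with ura1 first, then ura3, then ura5. Below them, ura2 and fur4 were neighbours that changed places: fur4 was above ura2 in 5 libraries and below it in estradiol library 0, at 46.2 against 50.1 FPKM. The dihydroorotase message was thus about as abundant as that of the transporter, and well below the other 3 synthesis genes.

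fur4, whose product carries uracil across the plasma membrane (chromosome I, 1841908 to 1844003, reverse strand), had 60.02, 69.6 and 64.3 FPKM in the controls. With estradiol it had 46.2, 59.4 and 57.1 FPKM. The estradiol values lay below the controls without overlap, narrowly, and library 0 was the lowest of its group on both sides. The log2 change was -0.25, with a 95% interval of -0.51 to 0.005 (limma adjusted p = 0.2). With the column number as a block, which compares libraries of the same number, fur4 was called lower (limma adjusted p = 0.0444). With the block 2 of the 5 members were called lower and 0 higher, beside 8.50% and 8.21% of all features, or 16.7% in either direction.

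The members did not all vary together over the 6 libraries. On log2 values ura3 and fur4 had a Pearson r of 0.95 and ura1 and ura5 one of 0.85, but ura2 and ura5 had 0.11. The genes most like each member were the calcium pump gene pmr1 (0.99) and SPAC26H5.07c (0.99) for ura1, prl13 (0.98) and SPBC19C2.10 (0.97) for ura2, and the mitochondrial ADP/ATP carrier gene anc1 and the cytochrome oxidase gene cox5 (both 0.99) for ura3. They were sak1 and ost2 (both 0.99) for ura5, and urb2 (0.99) and SPNCRNA.1680 (0.98) for fur4. Over 6 libraries from 2 groups such values are a description, since 82 other features passed 0.95 with ura1 and 4 did with ura2.

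ura4, the gene of the last step (chromosome III, 115589 to 116625, reverse strand), was listed at 0 in every control and every estradiol library. It was 1 of 49 protein-coding genes at 0 in all libraries, of 5105 protein-coding genes in the table. ura4 is a widely used selection marker that many laboratory strains lack. The labels do not give the allele carried here, and a listed 0 can also be a failed estimate. Which of these applies was not tested.

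The values at 0 did not reach the genes around ura4. All 10 of the nearest protein-coding genes, 5 on each side, had signal and were tested. The closest on one side was tam14, 333 bases away, with 44.6, 72.7 and 86.0 FPKM in the controls and 39.7, 48.9 and 50.4 FPKM with estradiol. On the other side was new25, 953 bases away, with means of 50.3 ± 7.61 and 64.4 ± 13.4 FPKM. Neither was called (limma adjusted p = 0.24 and 0.26), and the block called tam14 lower (limma adjusted p = 0.0416).

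Among these 10 neighbours limma called 2 lower and 1 higher, beside 3.91% and 4.07% of all features. SPCC330.03c, annotated as a cytochrome b5 reductase and 5021 bases from ura4, fell from 38.2 ± 2.72 to 15.9 ± 1.68 FPKM (log2 change -1.22, limma adjusted p = 0.0024). SPCC330.07c, annotated as a transporter, fell from 66.4 ± 7.8 to 44.8 ± 4.43 FPKM (-0.56, limma adjusted p = 0.0285). alg11, a mannosyltransferase gene of protein glycosylation, rose from 56.6 ± 2.31 to 68.7 ± 0.79 FPKM (0.28, limma adjusted p = 0.0331). Genes that fell, rose and did neither thus lay side by side. The call of SPCC330.03c held whichever library was left out, that of SPCC330.07c was lost on leaving out each one except estradiol 2 (limma adjusted p up to 0.104) and that of alg11 on leaving out each one except control 2 (up to 0.118). Quantile normalization and the correction for level also ended the call of alg11. The others were not called: log2 changes were -0.32 for pmp20, 0.38 for enp2, 0.15 for rhp7, 0.15 for SPCC330.19c and 0.024 for mug135, with limma adjusted p of 0.128, 0.067, 0.401, 0.812 and 0.964. The block called enp2 higher (limma adjusted p = 0.00786).

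**Figure D2:**
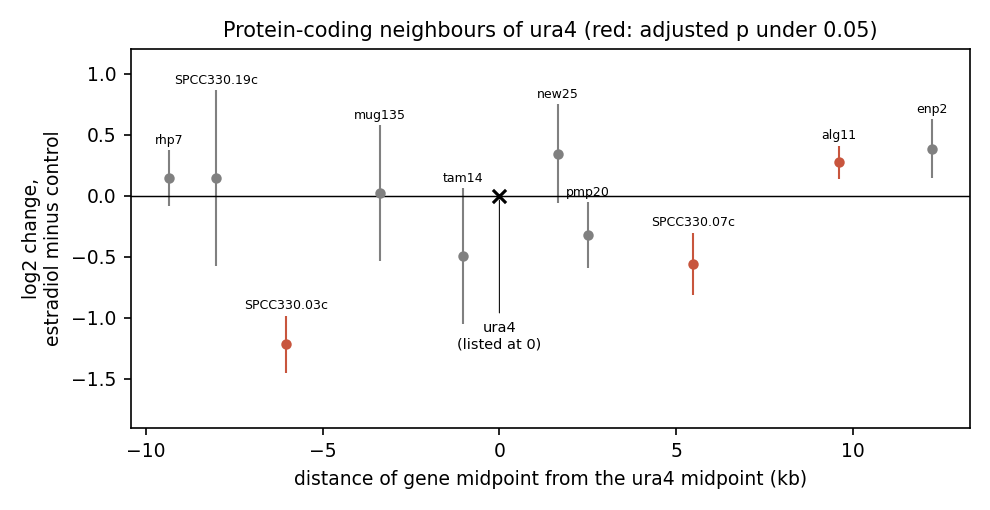
Log2 change (estradiol minus control, with 95% intervals) of the 5 protein-coding genes on each side of ura4 against the distance of their midpoints from that of ura4, in kb; red marks an adjusted p under 0.05. SPCC330.03c at -1.22 and SPCC330.07c at -0.56 lie below 0, alg11 at 0.28 lies above it, and the cross marks ura4, listed at 0.

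fur4 lies at the end of a run of 6 protein-coding genes, most linked to uracil by name or annotation. In order along chromosome I these are urg2, urg3, urg1, toe1, uck2 and fur4, from 1830609 to 1844003. The urg genes are named as uracil-regulatable, since added uracil raises their transcription. urg2 and uck2 are annotated as uracil phosphoribosyltransferase genes and urg1 as a GTP cyclohydrolase II gene. The cluster is described because fur4 lies in it, and its genes were taken up in detail after their values were seen.

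The 4 genes urg1, urg2, urg3 and uck2 varied widely between libraries. urg1 had 361, 176 and 64.7 FPKM in control libraries 0, 1 and 2, and 168, 43.2 and 19.2 FPKM in estradiol libraries 0, 1 and 2. In both groups library 0 was highest and library 2 lowest, and the highest of the 6 values was 18.8 times the lowest. urg2 had 437, 195 and 104 FPKM in the controls and 200.9, 64.6 and 39.96 FPKM with estradiol, in the same order. urg3 had 195, 144 and 91.03 FPKM and then 134, 82.2 and 52.8 FPKM, and uck2 110.3, 57.5 and 41.5 FPKM and then 66.1, 26.7 and 29.3 FPKM. In uck2 estradiol libraries 1 and 2 were close, and the groups overlapped for all 4 genes.

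Within each library number all 4 genes were lower with estradiol. The ratio of estradiol to control for urg1 was 0.465, 0.246 and 0.297 for numbers 0, 1 and 2, and for urg2 it was 0.46, 0.331 and 0.385. For urg3 the 3 ratios were 0.688, 0.571 and 0.58 and for uck2 0.599, 0.464 and 0.706. Without the block none of the 4 was called, with limma adjusted p of 0.306 for urg1, 0.278 for urg2, 0.304 for urg3 and 0.331 for uck2. With it all 4 were called lower: urg1 had a log2 change of -1.60 (limma adjusted p = 0.00531), urg2 -1.35 (0.00254), urg3 -0.70 (0.00466) and uck2 -0.77 (0.0131). What a shared column number stands for is not given in the labels.

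Between library numbers, fur4 did not vary with these 4 genes. Within each number it too was lower with estradiol, with ratios of 0.769, 0.854 and 0.888, and the block called it lower (limma adjusted p = 0.0444). Its highest value was 1.51 times its lowest, and library 0, the highest for the urg genes, was the lowest for fur4 in both groups. Over the 6 libraries the log2 values of urg1 had a Pearson r of 0.994 with urg2, 0.997 with urg3 and 0.943 with uck2, but of -0.0025 with fur4. toe1, between urg1 and uck2, was low, with 2.34 to 4.36 FPKM over all libraries, and was not called with or without the block (limma adjusted p = 0.923 and 0.915). SPAC1399.02, annotated as a transporter gene and next to fur4 on the other side, had 17.9, 20.6 and 19.4 FPKM in the controls and 13.1, 15.97 and 16.5 FPKM with estradiol. As for fur4, library 0 was lowest in both groups and the groups did not overlap. Its log2 change of -0.33 was not called (limma adjusted p = 0.118).

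**Figure D3:**
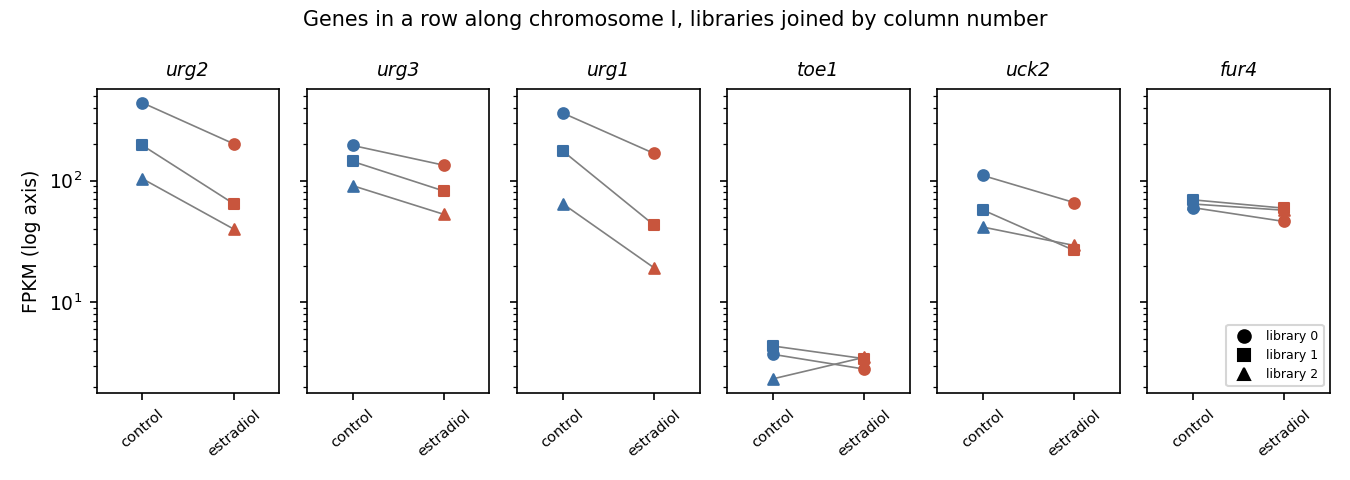
FPKM on a log axis of the 6 genes from urg2 to fur4 in chromosome order, with grey lines joining control (blue) and estradiol (red) libraries of the same column number, shown by symbol. For urg1 the lines run from 361 to 168, 176 to 43.2 and 64.7 to 19.2 FPKM, whereas all fur4 values lie between 46.2 and 69.6 FPKM.

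The upstream sequences of the 4 genes that varied together are shown because they share letters that the fur4 window lacks. A search of the 300 bases before each annotated start found CCGCGG, which reads the same on both strands, in all 4. The letters were picked as shared by these windows, so their presence there is no result. They occur in 48 of 5112 such windows (0.939%), and in none of the 6 members' windows. urg2 and urg3 are divergent and share 1 site, so the 4 windows hold 5 distinct sites. The 30 bases around each, read 5′ to 3′ on the strand of the gene with CCGCGG in capitals and cut from the RefSeq ASM294v3 genome, are these:
urg2 and urg3, shared site, chrI:1831858-1831887, reverse strand: tgtgattgcagcCCGCGGtctcaccgaggg
urg3, chrI:1832033-1832062, forward strand: aaaggaagtagtCCGCGGgtatgccacggc
urg1, chrI:1835067-1835096, forward strand: gtcggctattgcCCGCGGtagcgccgctcg
urg1, chrI:1835185-1835214, forward strand: acgaggaagtgcCCGCGGcaagtccgcgtg
uck2, chrI:1840367-1840396, forward strand: cggtcggaaattCCGCGGttgaaaatcggc
The whole urg1 window, chrI:1834954-1835253 on the forward strand, holds both of its sites:
urg1: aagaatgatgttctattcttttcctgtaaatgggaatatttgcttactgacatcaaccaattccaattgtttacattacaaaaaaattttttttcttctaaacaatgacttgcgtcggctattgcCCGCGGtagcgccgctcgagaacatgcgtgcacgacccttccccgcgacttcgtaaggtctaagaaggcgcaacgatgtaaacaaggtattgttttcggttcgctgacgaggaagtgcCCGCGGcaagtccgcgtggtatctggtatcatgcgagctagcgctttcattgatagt
The fur4 window, chrI:1844004-1844303 on the reverse strand, holds none:
fur4: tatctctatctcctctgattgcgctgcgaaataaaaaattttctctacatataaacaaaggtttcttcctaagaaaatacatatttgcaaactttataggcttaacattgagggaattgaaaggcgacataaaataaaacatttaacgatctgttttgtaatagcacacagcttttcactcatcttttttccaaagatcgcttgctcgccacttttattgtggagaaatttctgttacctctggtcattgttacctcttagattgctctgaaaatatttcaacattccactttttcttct
The last bases of each window adjoin the annotated transcript start, except for uck2, whose annotation begins at its start codon. A match of letters is not evidence that any factor binds there.

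The later steps turn UMP into the other pyrimidine nucleotides. Of 11 genes for them, all tested, limma called 1 lower and 0 higher, beside 3.91% and 4.07% of all features, and the list's median log2 change was -0.13 beside 0.02 for all features tested. Under quantile normalization, and likewise after correction for level, that median was -0.09 beside -0.02. The gene called was spd1, whose small protein inhibits ribonucleotide reductase: it had 53.8, 56.1 and 58.2 FPKM in the controls and 34.9, 36.9 and 42.5 FPKM with estradiol (log2 change -0.55, limma adjusted p = 0.0162). Leaving out control 0, control 1 or estradiol 1 ended the call (limma adjusted p up to 0.0704). The largest change upward was that of ndk1, the nucleoside diphosphate kinase gene, with 148 ± 8.18 and 172 ± 15.3 FPKM (0.22, limma adjusted p = 0.15). The CTP synthase gene cts1 (-0.23, limma adjusted p = 0.0706) and the reductase subunit gene cdc22 (-0.23, limma adjusted p = 0.167) were not called. The block called both lower (limma adjusted p = 0.0211 and 0.0286), and they were singled out once their values were known. In all the block called 3 of the 11 lower, spd1 included, and 0 higher, beside 8.50% and 8.21% of all features.

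Salvage returns free bases and nucleosides to the nucleotide pool. Of 13 genes of salvage, uptake and uracil regulation, the cluster genes other than fur4 included, limma called 0, beside 7.98% of all features in either direction. The lowest unadjusted limma p among the 13 was 0.0351, that of SPCC965.14c. The block called 4 lower, the cluster genes above, and 1 higher, beside 8.50% and 8.21% of all features. That gene was SPCC965.14c, annotated as cytosine deaminase, which converts cytosine to uracil. It had 53.4, 57.8 and 29.7 FPKM in the controls and 101, 84.04 and 56.4 FPKM with estradiol (log2 change 0.78, limma adjusted p = 0.156 and 0.0068 with the block). It was higher with estradiol within each library number, though the groups overlapped, so its direction was opposite to that of the urg genes. urk1, the gene of uridine kinase, had 70.8 ± 8.78 and 68.6 ± 2.19 FPKM (limma adjusted p = 0.855).

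A further 9 genes supply the pathway or share its first intermediate. limma called 3 of them lower and 0 higher, beside 3.91% and 4.07% of all features, and 1 to 3 lower when a library was left out, with a median log2 change of -0.30 beside 0.02 for all features tested. Under quantile normalization, and likewise after correction for level, that median was -0.23 beside -0.02. The 3 genes called belong to the arginine branch, which makes its own carbamoyl phosphate. arg4 and arg5, the subunits of the arginine-specific carbamoyl-phosphate synthase, fell from 107 ± 14.3 to 66.6 ± 8.45 FPKM (-0.67, limma adjusted p = 0.0272) and from 158 ± 6.53 to 111.5 ± 3.48 FPKM (-0.50, limma adjusted p = 0.00723). arg3, which encodes the carbamoyltransferase that uses it, fell from 60.2 ± 5.48 to 46.98 ± 1.43 FPKM (-0.35, limma adjusted p = 0.0443). The carbamoyl-phosphate synthase genes examined here, ura1, arg4 and arg5, were thus each called lower in this fit. Quantile normalization and the correction for level ended the call of ura1 (limma adjusted p = 0.0519 and 0.0566). The call of arg5 held whichever library was left out. That of arg4 ended on leaving out control 0, control 1, estradiol 1 or estradiol 2 (limma adjusted p up to 0.0969), and that of arg3 on leaving out any except control 2 (up to 0.135). Both scalings also ended the call of arg3, as did the fit without an intensity trend (limma adjusted p = 0.0677). Leaving out the filter on low values ended the calls of arg3 and arg4 (limma adjusted p = 0.0686 and 0.0677).

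Further genes of the list are given after their values were seen. gln1, which makes the glutamine that these synthases use, had 384, 306.5 and 282 FPKM in the controls and 253, 185 and 197 FPKM with estradiol. All estradiol values lay below the controls, with a log2 change of -0.61 that was just not called (limma adjusted p = 0.058, and 0.00405 with the block). The genes for ribose-phosphate pyrophosphokinase, the source of the ribose phosphate that Ura5 attaches, were not called: SPAC4A8.14 had 0.039 (limma adjusted p = 0.839), prs5 -0.09 (0.707) and SPCC1620.06c -0.30 (0.106, and 0.0401 with the block). In all the block called 7 of the 9 lower, beside 8.50% of all features.

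**Figure D4:**
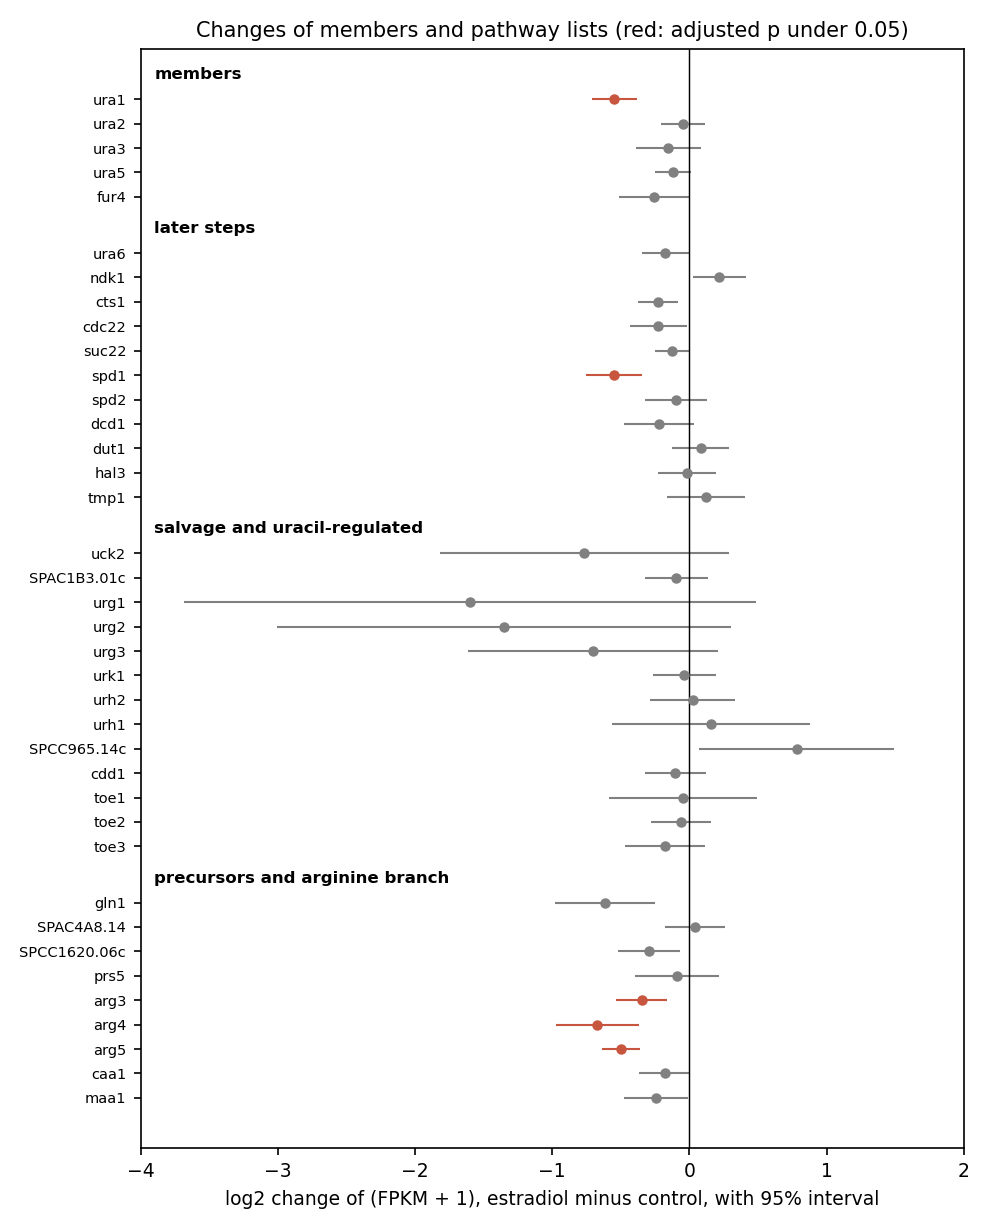
Log2 change of (FPKM + 1), estradiol minus control, with 95% intervals from limma for the 5 tested members and the genes of 3 pathway lists; red marks an adjusted p under 0.05. ura1 at -0.55, spd1 at -0.55, arg3 at -0.35, arg4 at -0.67 and arg5 at -0.50 are red, and the widest intervals are those of urg1 and urg2.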

How the data were processed

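The authors deposited 1 table of FPKM values with replicates kept apart, from ribosomal-RNA-depleted TruSeq libraries sequenced as paired 151-base MiSeq reads, per the labels' protocols. Per the submitters' processing notes, the tools were CASAVA 1.4, TopHat2 and Cuffdiff, whose settings are not stated. The build, the annotation and any scaling across libraries are not given in these sources. Strand is not marked by this kit, so ura1, ura3, ura5, fur4, urg1 and urg3 cannot be separated from the antisense RNAs annotated over them.

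Where FPKM divides by the library total alone, a change in abundant messages shifts the values of all others. Whether another scaling was applied here is not known. Columns were matched to groups by the condition number in their names, and the replicate numbers of the titles were not tied to columns. limma 3.58.1 in R 4.3.3 was fitted with an intensity trend to log2(FPKM + 1) of all 6166 features with a mean of at least 1 FPKM, 2-sided, with Benjamini-Hochberg adjustment over all of them, and was tested on simulated data. Fold changes on that scale understate changes of low genes. Control and estradiol columns numbered 0, 1 and 2 deviated together from their group means (r = 0.152, 0.212 and 0.146), so an alternative fit took that number as a block. Names and positions came from the ASM294v3 reference, which 6845 identifiers matched; the authors' build may differ. 1 list entry, SPBC1683.05, was dropped because the reference names it a thiamine transporter. Named genes were the members, each list's called genes and largest changes, 5 neighbours of ura4 on each side, those of fur4, the 2 features most like each member and GFP. Members, lists and the block were chosen with earlier results of these data known. The alternatives tried changed the pseudocount, the filter, the scaling or the trend, kept protein-coding genes alone, asked for a 2-fold minimum, added the block or left out a library. P-values measure only the spread between these libraries.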

Additional observations from a re-analysis of the deposited data

How the results depend on the processing

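ura1 kept its direction under every alternative, but not its call: its log2 change was -0.34 with the level correction and with quantile normalization, and at -0.55 it misses a 2-fold minimum. ura3 reversed, to 0.029 with quantile normalization and 0.017 with the level correction, and the replicate block called fur4 lower at -0.25 and changed no other member's call. The members called lower numbered 0 under those scalings and the 2-fold minimum and 2 with the block. Over all features the numbers called higher and lower were 58 and 13 with the 2-fold minimum, 144 and 108 with quantile normalization, 147 and 116 with the level correction and 506 and 524 with the block, and 49 to 242 and 37 to 207 when a library was left out. The later steps had 0 called lower with the 2-fold minimum, 3 with the block and 0 to 1 when a library was left out. With the block the salvage list had 1 higher and 4 lower. The precursor list had 0 lower with the 2-fold minimum, 1 without the filter on low values, 7 with the block and 1 to 3 when a library was left out. Of the ura4 neighbours, 0 were called higher with the 2-fold minimum, under either scaling or without the trend, 2 with the block and 0 to 1 when a library was left out; 1 was called lower with the 2-fold minimum or without the filter, and 1 to 2 when a library was left out. Small uncalled changes reversed: SPCC330.19c was -0.10 and -0.11 and mug135 -0.18 and -0.20 with the level correction and with quantile normalization. When a library was left out they ran from -0.086 to 0.39 and -0.21 to 0.24, SPAC4A8.14 from -0.024 to 0.14 and toe1 from -0.25 to 0.095. The cause of these shifts was not tested. The 95% intervals of ura3, ura5 and fur4 include both no change and a fall, and the absolute depth behind them is unknown.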

Other observations

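Outside the uracil cluster, SPAC521.03, annotated as a dehydrogenase gene, followed urg1 with a Pearson r of 0.99 over the 6 libraries and also has CCGCGG in the 300 bases before its start. It had 361, 275 and 163 FPKM in the controls and 221, 131 and 92.6 FPKM with estradiol, highest in library 0 and lowest in library 2 of both groups (log2 change -0.86, limma adjusted p = 0.212, and 0.00385 with the column-number block). It was picked after its values were seen. Genes without these letters also followed urg1, namely atb2 (r = 0.994), isp7 (0.991), alg8 (0.989) and SPAC8C9.04 (0.985), beside 0.992 for SPAC521.03. Leaving out the 4 genes whose windows gave the letters, 41 tested genes have CCGCGG before their start, of which limma called 6 lower and 0 higher, beside 3.91% and 4.07% of all features, and the block called 10 lower and 1 higher, beside 8.50% and 8.21%. The median log2 change of the 41 was -0.038. SPAC521.03, picked after its values were seen, is among the 41 and among the 10 that the block called lower. By level, the 6 called lower all stood high, at percentiles 89.8 to 94.7 of the features tested. The 6 were the lysine synthesis gene lys4 (501 ± 13.7 to 319 ± 17.6 FPKM, -0.65, limma adjusted p = 0.00486), the tyrosine-tRNA ligase gene yrs1 (-0.37, limma adjusted p = 0.0271), the histidine synthesis gene his2 (-0.34, limma adjusted p = 0.0352), nap1, tma20 and sxa1. The call of lys4 held with quantile normalization, with the level correction and whichever library was left out. Those of the other 5 ended with both scalings and on leaving out at least 1 library (highest limma adjusted p per gene from 0.0868 to 0.133). The letters were chosen from these data and no test was made of this share.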
